A study of Mus musculus with 18 samples.

Results

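Cell division genes encode the proteins that copy the chromosomes and then separate them into daughter cells, and 49 of them were followed through the ageing of mouse hindlimb muscle. They were chosen by gene name, and all 49 were found among the 23420 genes of the RNA-seq table. The RNA came from female C57BL/6J mice that carried no engineered allele and received no treatment, aged 2 months (2 m, young), 20 months (20 m, aged) or 28 months (28 m, superaged). Each age was represented by 3 mice, and each of the 9 libraries was made from the powdered muscle of a single mouse. From the same mice, the DNA of muscle and of spleen T cells was pooled over the 3 mice of an age, and its methylated fragments were enriched with the methyl-CpG-binding protein domain that gives MBD-seq its name. The questions addressed here were how much RNA of these genes is present in muscle at each age, and whether it differs between ages.

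In a dividing cell, licensing factors and the Mcm helicase prepare replication origins, and the sliding clamp Pcna and the enzymes of nucleotide supply serve the replication fork. Cyclins then activate Cdk1, condensin and topoisomerase II shape the chromosomes, kinetochores and spindle motors pull them apart, and the anaphase-promoting complex ends mitosis by marking cyclins for destruction. The nuclei of muscle fibres have left the cell cycle for good, so that in adult muscle these proteins are known from activated satellite cells, which are the stem cells of the fibres, and from cells between the fibres, while bone marrow is one of the most rapidly dividing tissues of the body.

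Between 20203833 and 71115244 reads per library were assigned to genes, and 1 read was worth between 0.545 and 2.23 normalized counts, the unit used below (reads divided by 1 size factor per library). Genes of muscle fibres were abundant in all 9 libraries, with a summed normalized count over 10 markers of 7274112 to 8374790 in 2-m, 6575796 to 7596204 in 20-m and 6243187 to 6452562 in 28-m muscle. Of these 10, 2 were called lower for 20 against 2 m, 2 for 28 against 2 m and 3 for both older ages against 2 m, with 7.13%, 6.24% and 8.92% of all tested genes called lower. Leaving out the 2-m library 1 gave 2, 1 and 2, with 10.8%, 8.54% and 12.8% of all tested genes called in either direction. The 2-m library numbered 1 stood apart in markers of bone marrow. Its 14 neutrophil precursor markers summed to 5882 normalized counts, against 67.7 to 167 in the other 8 libraries, and all 14 were highest in it. Its 12 red cell precursor markers summed to 2358 against 147 to 421, and again all 12 were highest in it. Among them, the granule gene Ngp stood at 1204 against 0 to 20.2, the lactoferrin gene Ltf at 749 against 1.38 to 7.94, and the red cell transcription factor gene Gata1 at 58.0 against 0 to 3.79. Bone and cartilage markers summed to 3843 in that library against 619 to 990.3, and 11 of 12 were highest in it. B-cell precursor markers summed to 664 against 308 to 484, whereas T-cell markers summed to 33.4 against 14.1 to 47.0 and satellite cell markers to 2216 against 1319 to 2435, within the range of the others. Fibroblast markers summed to 37266 to 70333 in the 3 libraries of 2 m and to 19576 to 26596 in the 6 older ones. Macrophage markers summed to 3433 to 4909 in 2-m, 3116 to 3228 in 20-m and 3279 to 4530 in 28-m muscle, and 3 of the 7 tested were called lower for 20 against 2 m with all 9 libraries (7.13% of all genes) and 0 without the 2-m library 1 (10.8% called in either direction). Because of that library, most tests given for the members are followed by their values without it, and the part of marrow cells in its values was not tested. The part of fibre, fibroblast and macrophage content in the differences between ages was not tested either.

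Outside the 2-m library 1, the members ranged from genes with hardly a read to abundant genes. A total of 15 members had 10 or fewer reads in each of these 8 libraries, and 17 members had no read in at least 1 library. The mean over all 9 libraries reached 10 normalized counts, the minimum for testing, in 34 members, and 8 of these 34 reached it only through the 2-m library 1 (Ccne1, Cdc20, Birc5, Top2a, Cenpe, Cenpf, Hmmr and Prc1). The 15 members that were not tested were Cdc6, Gins2, Ccnb1, Ccnb2, Cdk1, Ube2c, Aurkb, Plk1, Bub1, Cdca8, Melk, Ncapg, Kif4, Kif23 and Ect2. At the other end, 9 members held at least 100 normalized counts in every library (Mcm2, Mcm4, Mcm6, Mcm7, Pcna, Rrm1, Aurka, Smc4 and Tpx2). In level per kilobase of transcript, as the mean over 9 libraries, Pcna led with 470.5 normalized counts per kb, followed by Rrm1 with 299.7, Aurka with 132, Mcm7 with 116 and Mcm2 with 110.0. Per kilobase Pcna was ahead of 76.4% of all tested genes.

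**Figure D1:**
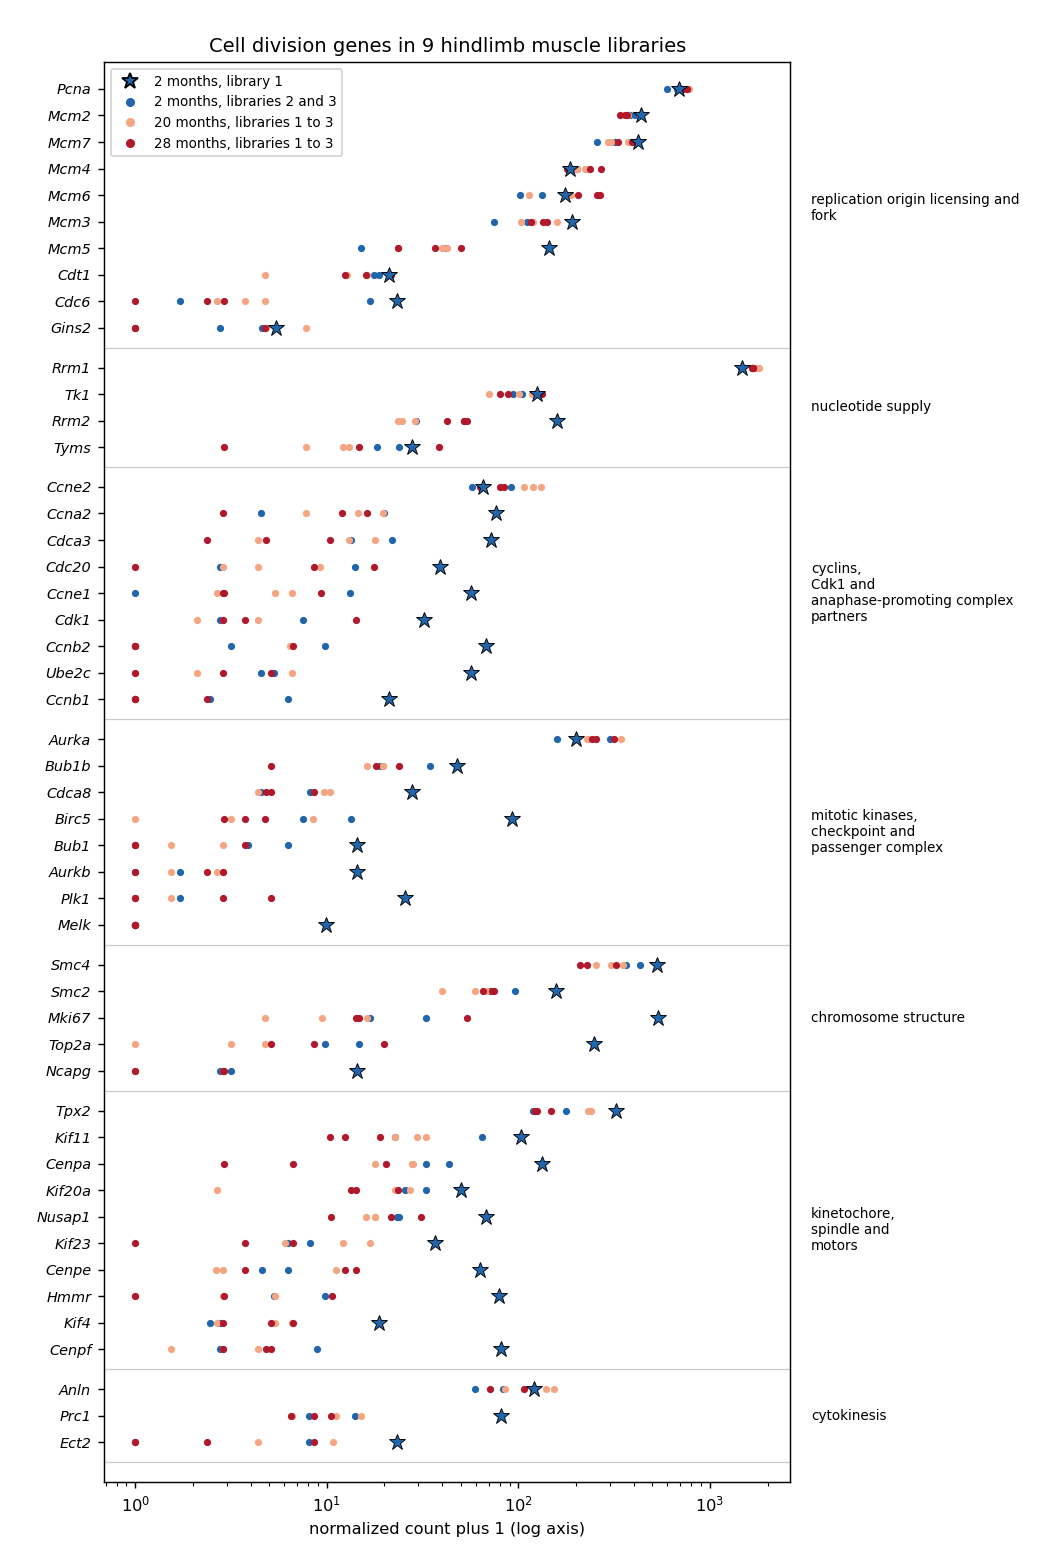
Normalized count plus 1 (log axis) of each of the 49 cell division genes in each of 9 libraries, grouped by role, with a star for the 2-m library 1 and circles for the other 8 libraries, coloured by age. The star lies to the right of every circle in 38 of the 49 genes, while the members with the highest levels, such as Pcna, Rrm1 and Mcm2, show little spread.

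The 2-m library 1 was the highest of the 9 libraries in 38 of the 49 members, among them 24 of the 34 tested members, whereas it was the highest in 14.4% of all tested genes. It lay over 2-fold above every other library, on the scale of the normalized count plus 1, in 28 of the 49 members, which include 15 of the 34 tested ones, compared with 0.797% of all tested genes. The tested members include the 8 that passed the minimum only through this library, so these counts are a description. The excess differed between roles. All 5 genes of chromosome structure, all 10 of kinetochore, spindle and motors, 8 of 9 cyclin, Cdk1 and anaphase-promoting complex genes, 7 of 8 mitotic kinase and checkpoint genes and 2 of 3 cytokinesis genes were highest in the 2-m library 1, but only 5 of 10 replication origin and fork genes and 1 of 4 nucleotide supply genes were. Over 2-fold above every other library were 8 of 9 genes of the cyclin role and 7 of 10 of the kinetochore role, but 1 of 10 of the origin and fork role (Mcm5) and 1 of 4 of the nucleotide role (Rrm2).

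As sums over each role, the 9 cyclin, Cdk1 and anaphase-promoting complex genes reached 479 normalized counts in the 2-m library 1 against 93.4 to 175 in the other 8 libraries. The 5 chromosome structure genes summed to 1480.0 against 300.3 to 573, and the 10 kinetochore, spindle and motor genes to 947 against 180.3 to 351. The 10 replication origin and fork genes summed to 2280.2 against 1655 to 2227, which is 1.02-fold the next library, and the 4 nucleotide supply genes to 1772 against 1609 to 1946, inside the range of the others.

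**Figure D2:**
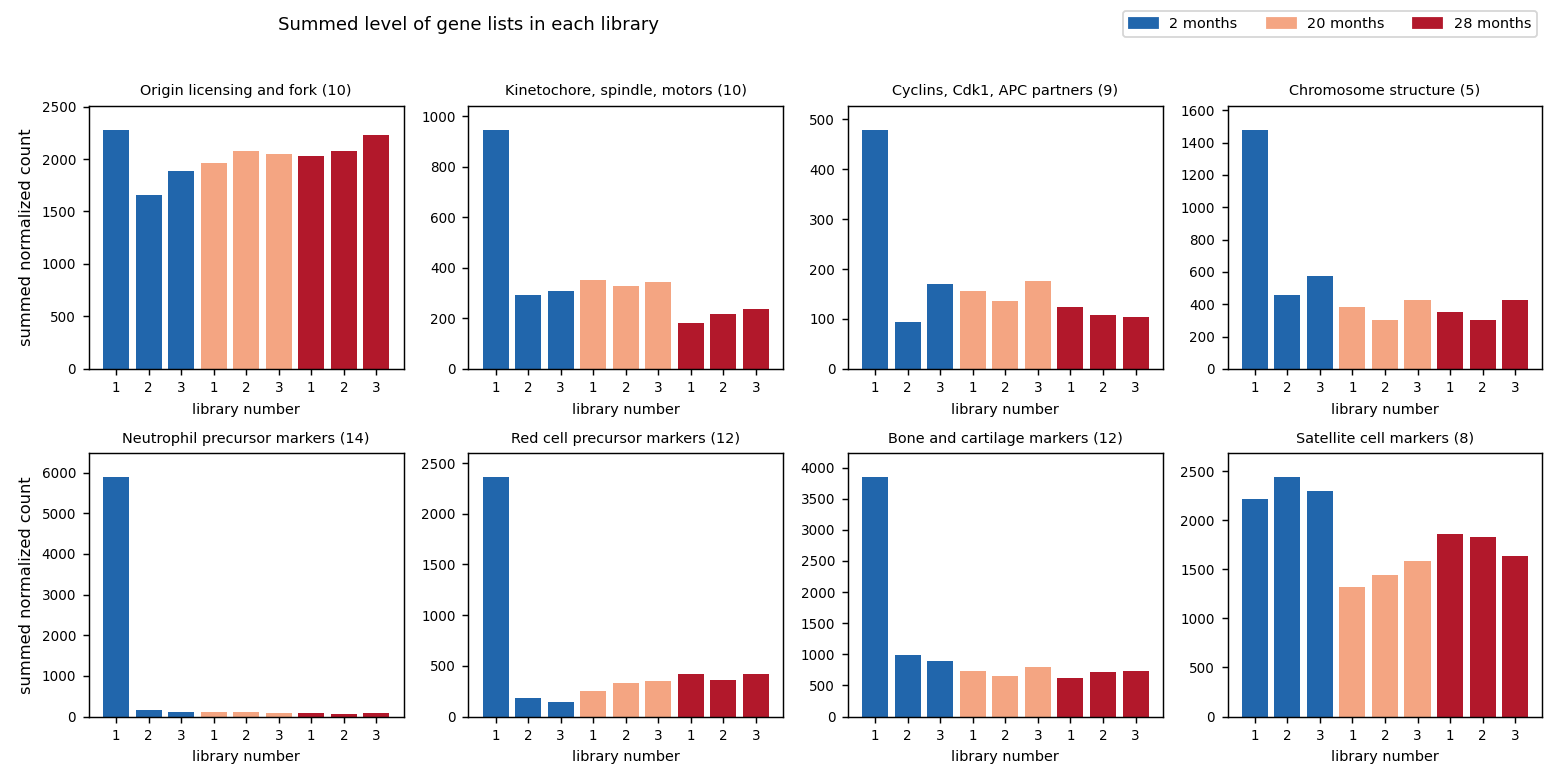
Summed normalized count (linear axes from 0) of 4 roles of cell division genes (top) and 4 lists of cell type markers (bottom) in each of the 9 libraries, coloured by age, with the number of genes in brackets. The first bar, the 2-m library 1, stands above the other 8 in the kinetochore, cyclin and chromosome structure panels and in the neutrophil, red cell, and bone and cartilage panels, but hardly in the origin licensing panel and not in the satellite cell panel.

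The start sites of the members differed in sequence features between the same roles. RefSeq promoter entries (GRCm38.p6, 250 bases before to 50 bases after the start) matched 41 of the 49 members, and those of Mcm4, Gins2, Ccne2, Ccna2, Aurkb, Smc4, Kif20a and Tpx2 were missing. The motifs searched on both strands were the cell cycle genes homology region (CHR, TTTGAA or TTCGAA), the CCAAT box (CCAAT) and the E2F site (TTTCCCGC, TTTGGCGC, TTTCGCGC or TTTGCCGC), of which E2F letters may overlap one another on opposite strands. A CHR match was found in 23 of the 29 cyclin and mitotic members with an entry (79.3%) and in 2 of the 12 members of replication and nucleotide supply (16.7%), against 17.3% of the 16375 genes of the table with an entry. An E2F match was found in 6 of those 12 (50%) and in 2 of the 29 (6.90%), against 2.86% of all genes. A CCAAT match was found in 32 of the 41 (78.0%), against 39.0% of all genes. The members' windows were richer in CpG, with a median of 24 CpG against 14 for all genes, and a match is a description of the letters only. The 120 bases that end just before the start are shown for 4 mitotic members that were much higher in the 2-m library 1 and for 2 replication members that were not. Capitals mark matches to the 3 motifs on either strand, so that CCAAT on the other strand reads ATTGG and TTTGAA reads TTCAAA.
Mki67 (chr7:135716380-135716499, minus strand): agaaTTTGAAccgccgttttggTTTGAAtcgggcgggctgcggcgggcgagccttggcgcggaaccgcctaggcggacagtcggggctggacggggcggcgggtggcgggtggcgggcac
Top2a (chr11:99024190-99024309, minus strand): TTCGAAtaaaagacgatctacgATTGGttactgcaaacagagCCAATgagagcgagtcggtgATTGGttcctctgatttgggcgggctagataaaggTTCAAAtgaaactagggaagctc
Cdk1 (chr10:69352913-69353032, minus strand): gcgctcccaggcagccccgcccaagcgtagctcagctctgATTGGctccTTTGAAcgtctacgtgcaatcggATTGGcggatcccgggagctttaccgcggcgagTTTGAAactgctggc
Ube2c (chr2:164769809-164769928, plus strand): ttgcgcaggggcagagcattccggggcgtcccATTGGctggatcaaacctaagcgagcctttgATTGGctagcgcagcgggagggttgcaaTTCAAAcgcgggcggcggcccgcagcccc
Mcm6 (chr1:128359706-128359825, minus strand): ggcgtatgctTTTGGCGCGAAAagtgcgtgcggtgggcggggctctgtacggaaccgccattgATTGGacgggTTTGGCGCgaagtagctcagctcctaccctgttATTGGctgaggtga
Rrm1 (chr7:102441575-102441694, plus strand): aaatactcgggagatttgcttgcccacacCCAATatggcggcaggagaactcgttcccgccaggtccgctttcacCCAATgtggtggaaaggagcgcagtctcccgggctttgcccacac
In these 120 bases Mki67, Top2a, Cdk1 and Ube2c hold CHR letters, and in the last 3 of them CCAAT letters precede the CHR match that is nearest to the start. Mcm6 holds E2F and CCAAT letters, with a pair of E2F matches that overlap on opposite strands, and Rrm1 holds CCAAT letters only.

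**Figure D3:**
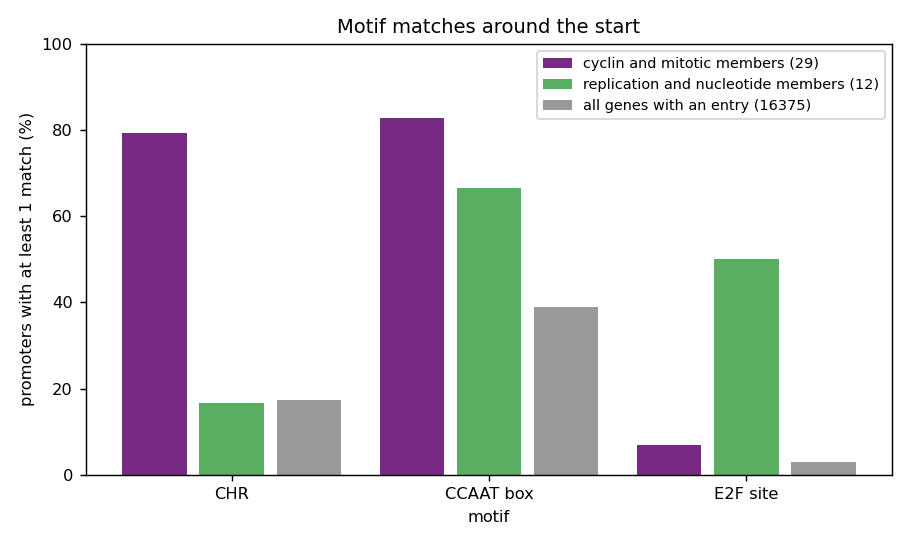
Percentage of promoter windows (300 bases) with at least 1 match to each of 3 motifs, for 29 cyclin and mitotic members, 12 replication and nucleotide members, and all 16375 genes with an entry. The CHR bar of the mitotic members (79.3%) stands far above the other CHR bars, and the E2F bar of the replication members (50%) above the other E2F bars.

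Among the replication genes, Pcna, the sliding clamp that holds DNA polymerase on its template, stood at 687, 594 and 671 normalized counts in 2-m muscle, at 758, 776 and 746 in 20-m muscle, and at 725, 713 and 759 in 28-m muscle. All 6 libraries of the older ages were above all 3 of 2 m, but the difference was small, with a log2 fold change of 0.20 ± 0.08 (SE) for 20 and 28 m against 2 m, and it did not pass the test (limma, adjusted p = 0.106, and 0.24 ± 0.10 with adjusted p = 0.125 without the 2-m library 1). Mcm2, a subunit of the replicative helicase, stood at 437, 381 and 406 in 2-m, 366, 430.3 and 372 in 20-m and 339.7, 366 and 360.5 in 28-m muscle. Its 28-m libraries lay below all those of 2 m, without passing the test (log2 fold change −0.20 ± 0.12, adjusted p = 0.310, and −0.15 ± 0.13 with adjusted p = 0.562 without the 2-m library 1).

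Mcm6, another subunit of this helicase (GRCm38.p6 chr1:128331575-128359705, minus strand), stood at 174, 100.4 and 132 normalized counts in 2-m muscle, at 177, 113 and 188 in 20-m muscle and at 266, 203 and 257 in 28-m muscle. The 28-m libraries lay above all other 6. Mcm6 rose 1.81-fold from 2 to 28 m (log2 fold change 0.86 ± 0.24, limma, adjusted p = 0.034), and without the 2-m library 1 the log2 fold change was 1.05 ± 0.25 (adjusted p = 0.025). The call was lost in 6 of 21 alternatives, whose adjusted p ranged from 0.0054 to 0.121, among them the fit with no minimum level (0.052) and those without the 2-m library 2 (0.098) or 3 (0.071) or without the 28-m library 1 (0.120) or 3 (0.104). The step from 20 to 28 m was 0.62 ± 0.24 (adjusted p = 0.379, and 0.348 without the 2-m library 1). Mcm6 was the only member called without the 2-m library 1. The other 5 helicase genes were not called in any of the comparisons, and the medians of the 8 tested members of this role were 0.16 for 28 against 2 m with all libraries and 0.30 without the 2-m library 1.

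Mcm3 stood at 189, 74.0 and 110.5 in 2-m, 103, 118 and 157 in 20-m, and 133, 116 and 139.7 in 28-m muscle, and its 3 age groups overlapped. Mcm7 stood at 419, 256 and 318 in 2-m, 304, 375 and 291 in 20-m, and 328, 389 and 400.1 in 28-m muscle, with overlap as well. Mcm5 stood at 143, 14.1 and 41.1 in 2-m, 22.4, 38.8 and 41.4 in 20-m, and 49.3, 35.9 and 22.6 in 28-m muscle. The first of the 2-m values alone placed the 2-m mean of Mcm5 above the older ages, and its log2 fold change for 20 and 28 m against 2 m went from −0.38 ± 0.56 to 0.46 ± 0.48 without that library. Mcm4, with group means of 191 ± 8.50, 216 ± 13.1 and 228 ± 46.3 (SD, n = 3), was likewise not called. The loading factors Cdc6 and Cdt1 and the helicase partner Gins2 had at most 28 reads in any library.

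Rrm1, the large subunit of ribonucleotide reductase, which makes deoxyribonucleotides, was second to Pcna per kilobase and stood at 1462, 1454 and 1652 in 2-m, 1653, 1728 and 1806 in 20-m, and 1669.9, 1678 and 1665 in 28-m muscle. The older libraries were all above those of 2 m by a narrow margin, and the log2 fold change of 0.16 ± 0.07 did not pass the test (adjusted p = 0.128, and 0.13 ± 0.08 with adjusted p = 0.331 without the 2-m library 1). Rrm2, the subunit of the same enzyme that is made mainly in S phase, stood at 158, 28.2 and 51.3 in 2-m, 22.4, 23.6 and 27.8 in 20-m, and 51.2, 41.4 and 52.8 in 28-m muscle. The 20-m libraries were below all others, though hardly below the 2-m library 2 (27.8 against 28.2, where 1 read of the latter is worth 1.76). The log2 fold changes were −1.29 ± 0.50 for 20 against 2 m (limma, adjusted p = 0.095) and 0.95 ± 0.50 for 28 against 20 m (adjusted p = 0.531). Leaving out the 2-m library 1 changed the first to −0.61 ± 0.39 (adjusted p = 0.337) and left the second at 0.95 ± 0.35 (adjusted p = 0.354), and the value for 28 against 2 m went from −0.34 ± 0.50 to 0.33 ± 0.39. The thymidylate genes Tyms and Tk1 were not called, and 18.6% of the exon bases of Tk1 are shared with Afmid on the other strand, whose reads cannot be told apart since the libraries do not mark strand.

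Among cyclins, Ccne2, which drives entry into S phase, was highest at 20 m. It stood at 64.6, 56.4 and 91.0 in 2-m, 106, 118 and 129.7 in 20-m, and 83.5, 62.1 and 79.3 in 28-m muscle, so that the 20-m libraries were above all other 6. The log2 fold changes were 0.76 ± 0.24 for 20 against 2 m (limma, adjusted p = 0.051) and −0.66 ± 0.24 for 28 against 20 m (adjusted p = 0.355), neither of which passed. They were 0.71 ± 0.27 and −0.66 ± 0.25 without the 2-m library 1 (adjusted p = 0.122 and 0.364). A total of 52.3% of the exon bases of Ccne2 are shared with Ints8 on the other strand. Ccna2, the cyclin of S and G2 phase, stood at 75.8, 3.52 and 18.8 in 2-m, 18.7, 6.75 and 13.6 in 20-m, and 15.2, 11.0 and 1.89 in 28-m muscle. Its log2 fold change for 20 and 28 m against 2 m was −0.87 ± 0.85 with all libraries and 0.14 ± 0.86 without the 2-m library 1.

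The mitotic cyclin Ccnb1 stood at 20.1, 5.29 and 1.44 in 2-m muscle, which are 9, 3 and 2 reads, at 0 in each 20-m library and at 0, 1.38 and 0 in 28-m muscle. A count of 0 allows up to 3 reads, or 1.63 to 5.60 normalized counts in the 20-m libraries, and this limit and the read counts cover counting error only. Ccnb1 was below the minimum for testing. With no minimum level it was called lower for 20 against 2 m (limma, adjusted p = 0.031) and for both older ages (adjusted p = 0.018). Both calls were lost without the 2-m library 1 (adjusted p = 0.097 and 0.089). Cdk1, the kinase that Ccnb1 activates, stood at 31.2, 1.76 and 6.50 in 2-m, 1.87, 3.37 and 1.09 in 20-m, and 13.3, 2.76 and 1.89 in 28-m muscle, which is at most 9 reads outside the 2-m library 1. Of the remaining genes of this role, Ccne1, Ccnb2, Cdc20, Ube2c and Cdca3 were all highest in the 2-m library 1. Of these, Ccnb2 and Ube2c were not tested and none of the other 3 was called by limma, although edgeR on the recovered reads called Cdca3 lower for both older ages against 2 m (adjusted p = 0.034).

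Aurka, a kinase of the centrosome and spindle poles, was the one mitotic kinase with a level well above the limit of detection. It stood at 198, 159 and 299.6 in 2-m, 226, 341 and 234 in 20-m, and 252, 240.3 and 313 in 28-m muscle, with overlapping groups and a log2 fold change of 0.32 ± 0.20 for the older ages (adjusted p = 0.284, and 0.28 ± 0.24 with adjusted p = 0.489 without the 2-m library 1). Birc5, or survivin, a part of the chromosomal passenger complex, stood at 91.4, 12.3 and 6.50 in 2-m, 7.47, 0 and 2.18 in 20-m, and 1.90, 2.76 and 3.77 in 28-m muscle, and its value in the 2-m library 1 was 7.41-fold that of the next library. The partner kinase Aurkb, with 6 reads in that library, had at most 1 read in each of the others, and Plk1 had 11 reads there and at most 3 elsewhere. Melk was seen with 4 reads in the 2-m library 1 and with none in the other 8, where a count of 0 allows up to 1.63 to 5.69 normalized counts.

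The widely used proliferation marker Mki67, which coats mitotic chromosomes, stood at 535, 15.9 and 31.8 normalized counts in 2-m muscle, at 3.74, 8.44 and 15.3 in 20-m muscle and at 53.1, 13.8 and 13.2 in 28-m muscle. The 2-m library 1 held 240 reads of it and 10.1-fold the level of the next library, and the other 8 libraries overlapped between 2 and 28 m. The log2 fold change for 20 against 2 m was −2.89 ± 1.04 (limma, adjusted p = 0.077) and −1.39 ± 0.77 without that library (adjusted p = 0.275), and for 28 against 2 m it went from −1.57 ± 1.04 to −0.06 ± 0.77. Top2a, the topoisomerase that untangles sister chromatids (chr11:98992947-99024199, minus strand), stood at 247, 8.81 and 13.7 in 2-m, 3.74, 0 and 2.18 in 20-m, and 7.59, 4.14 and 18.9 in 28-m muscle. It was the only member called by limma for 20 against 2 m, with a log2 fold change of −3.74 ± 1.15 (adjusted p = 0.043), but it entered the test only through the 2-m library 1. Without that library and without a minimum level, its log2 fold change was −2.28 ± 0.84 (adjusted p = 0.142).

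Smc4, a core subunit of condensin (chr3:69004738-69034623, plus strand), stood at 528, 363 and 431 in 2-m, 304, 253 and 350.3 in 20-m, and 226, 209.9 and 323 in 28-m muscle. All 6 older libraries lay below all 3 of 2 m. Smc4 fell from 2 to 28 m by 0.81 ± 0.19 on the log2 scale (1.75-fold lower, limma, adjusted p = 0.016), and from 2 m to both older ages by 0.67 ± 0.17 (adjusted p = 0.014). Without the 2-m library 1 the values for the same comparisons were −0.67 ± 0.21 (adjusted p = 0.070) and −0.53 ± 0.19 (adjusted p = 0.083), in the same direction but past the threshold no longer. Its partner Smc2 had group means of 107 ± 44.1, 54.8 ± 14.5 and 69.8 ± 4.64 (SD, n = 3) and was not called.

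Among kinetochore genes, Cenpa, the histone variant that marks the centromere (chr5:30666877-30674837, plus strand), stood at 132, 42.3 and 31.8 in 2-m, 16.8, 27.0 and 27.2 in 20-m, and 1.90, 19.3 and 5.66 in 28-m muscle. All older libraries were below those of 2 m, although the 28-m values rest on 1, 14 and 3 reads. Cenpa fell by 2.97 ± 0.71 on the log2 scale from 2 to 28 m (limma, adjusted p = 0.015) and by 2.11 ± 0.61 from 2 m to both older ages (adjusted p = 0.029). Without the 2-m library 1 these were −2.36 ± 0.75 (adjusted p = 0.075) and −1.50 ± 0.67 (adjusted p = 0.168). Kif11, the motor that pushes the spindle poles apart (chr19:37376382-37421863, plus strand), stood at 103, 63.4 and 21.7 in 2-m, 31.8, 28.7 and 21.8 in 20-m, and 11.4, 18.0 and 9.44 in 28-m muscle, and the 28-m libraries were below all others. Kif11 fell by 1.98 ± 0.53 from 2 to 28 m (adjusted p = 0.027) and by 1.45 ± 0.46 from 2 m to both older ages (adjusted p = 0.042), and the values without the 2-m library 1 were −1.50 ± 0.55 (adjusted p = 0.120) and −0.97 ± 0.49 (adjusted p = 0.226).

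Tpx2, which activates Aurka on spindle microtubules, showed close replicates at 20 and 28 m but not at 2 m. It stood at 323, 118 and 175 in 2-m, 239, 235 and 230.5 in 20-m, and 121, 124 and 147 in 28-m muscle, so that 20 and 28 m did not overlap. The log2 fold change for 28 against 20 m was −0.84 ± 0.28 (limma, adjusted p = 0.294, and 0.101 without the 2-m library 1), and for both older ages against 2 m it went from −0.11 ± 0.24 to 0.28 ± 0.19 without the 2-m library 1. Cenpe, Cenpf, Hmmr, Kif4 and Kif23 were highest in that library and had at most 29 reads in each of the others. Kif20a and Nusap1 were not called, and 60.6% of the exon bases of Kif20a are shared with Cdc23 on the other strand. Of the cytokinesis genes, Anln, a scaffold of the contractile ring, had group means of 86.9 ± 31.4, 124.7 ± 36.0 and 97.9 ± 24.5 (SD, n = 3) and was not called, and Prc1 and Ect2 were highest in the 2-m library 1.

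**Figure D4:**
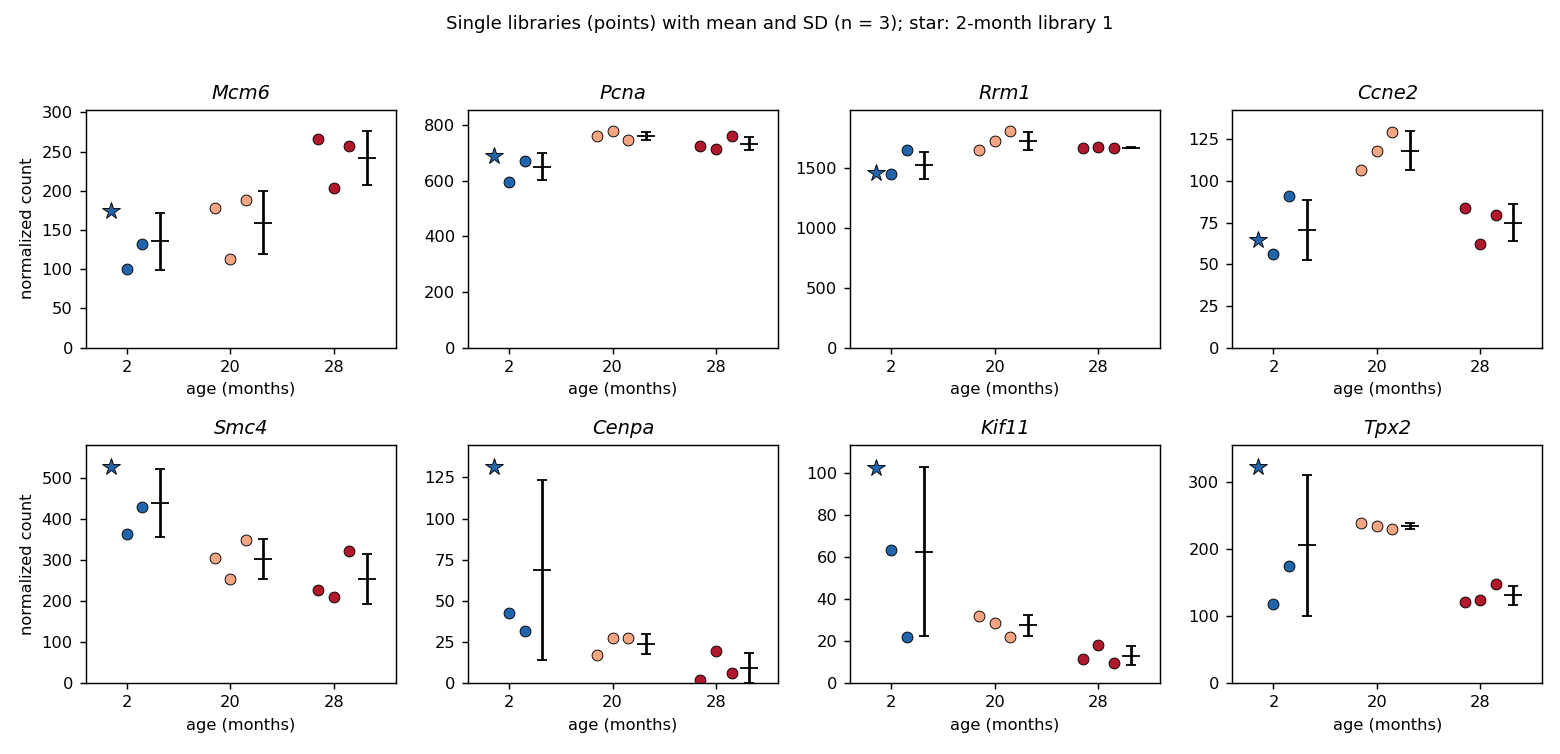
Normalized count (linear axes from 0) of 8 members in single libraries by age, with a star for the 2-m library 1 and bars for the mean and SD of the 3 libraries. Smc4 and Cenpa are lower in every older library than in every 2-m library, Mcm6 is highest in the 3 libraries of 28 m, Ccne2 in the 3 of 20 m, and Pcna and Rrm1 lie slightly higher in all older libraries.

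Counted over the members, 1 of the 34 tested was called for 20 against 2 m (Top2a, lower), where 16.6% of all tested genes were called, 7.13% lower and 9.42% higher. For 28 against 2 m, 4 were called, with Cenpa, Smc4 and Kif11 lower and Mcm6 higher, against a background of 13.8% (6.24% lower and 7.53% higher). For both older ages against 2 m, 3 were called, all lower (Smc4, Cenpa and Kif11), against 20.1% called in either direction, 8.92% lower and 11.2% higher. These 3 comparisons share the 2-m libraries. Over the alternatives tried, the calls for 28 against 2 m were lost in 6 of 21 for Smc4, 4 of 20 for Cenpa and 7 of 20 for Kif11, and that of Top2a for 20 against 2 m in 8 of 17. The calls for both older ages were lost in 12 of 19 for Kif11 (adjusted p of 0.0041 to 0.334), 4 of 19 for Cenpa (0.0013 to 0.233) and 4 of 20 for Smc4 (0.0021 to 0.128). Kif11 lost this call without any one library other than the 2-m library 3 and the 28-m library 2, and Cenpa also lost it without the 20-m library 1. None of the 34 was called for 28 against 20 m by limma, where 0.379% of all genes were, and 4 had an unadjusted p under 0.05 (Tpx2, Ccne2, Mcm6 and Cenpa), as did 10.6% of all genes. Tests on the recovered reads called more members in some comparisons. edgeR called 4, 4, 0 and 9 of the 34 for 20 against 2 m, 28 against 2 m, 28 against 20 m and both older ages against 2 m, with 16.7%, 13.5%, 0.387% and 20.6% of all genes called. Those for 20 against 2 m were Birc5, Mki67, Top2a and Cenpf, and those for both older ages were the same 4 with Cdca3, Smc4, Cenpa, Kif11 and Hmmr. Of these, Birc5, Top2a, Cenpf and Hmmr had passed the minimum level only through the 2-m library 1, that is 3 of the 4 and 4 of the 9. DESeq2 called 6, 6, 0 and 11, with 19.4%, 16.1%, 1.71% and 22.5% of all genes, and was not fitted without the 2-m library 1. With the 2-m library 1 left out, edgeR called 0, 1, 0 and 0 members, with 11.2%, 8.54%, 0.367% and 13.3% of all genes. The groups did not overlap in 12 of 34 members for 20 against 2 m (36.0% of all tested genes), in 10 for 28 against 2 m (30.3%), in 7 for 28 against 20 m (17.5%) and in 4 for both older ages against 2 m (20.1%), of which Pcna and Rrm1 were higher and Smc4 and Cenpa lower. By a fold over 2 with an unadjusted p under 0.05 (limma), 4, 4, 1 and 7 of the 34 were counted for 20 against 2 m, 28 against 2 m, 28 against 20 m and both older ages against 2 m, against 5.17%, 5.14%, 1.31% and 5.11% of all genes. Some of these members passed the minimum level only through the 2-m library 1. They were Birc5 and Top2a for 20 against 2 m, Birc5 for 28 against 2 m, and Birc5, Top2a and Hmmr among the 7. Without that library the counts were 0, 3, 1 and 1 of 26, against 4.73%, 4.59%, 1.28% and 4.41%.

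The median log2 fold change of the tested members was −0.92 for 20 against 2 m, −0.67 for 28 against 2 m and −0.84 for both older ages against 2 m, with the median of all genes between −0.02 and −0.01. Below 0 were 25 of the 34 in each of these comparisons, against 52.1%, 51.5% and 51.9% of all genes. These values are a description, since the 8 members that passed the minimum only through the 2-m library 1 had to be lower at the older ages, and all 8 lay below 0. Over the other 26, in the same fit, the medians were −0.47, −0.35 and −0.48, with 17 below 0 in each comparison. Without the 2-m library 1, 26 members were tested and the medians were −0.05, −0.10 and −0.06. Then 14, 15 and 14 of the 26 lay below 0, and 0, 1 and 1 member was called, in each case Mcm6 (backgrounds 10.8%, 8.54% and 12.8%, of which 4.73% and 7.49% were higher in the last 2 comparisons). Of all genes 52.3%, 51.9% and 52.4% lay below 0 then. For 28 against 20 m the medians were 0.06 with all libraries and 0.04 without, with 14 of 34 and 12 of 26 members below 0 (50.6% of all genes in both fits), and no member was called without the 2-m library 1 (0.359% of all genes). The direction reversed without the 2-m library 1 in Mcm5, Mcm7 and Ccna2 for 20 against 2 m, in Mcm5 and Rrm2 for 28 against 2 m, and in Mcm5, Ccna2 and Tpx2 for both older ages, none of which was called in either fit. These are among the 26 members tested both ways. Over the 48 members that could be fitted both ways with no minimum level, the direction reversed in 9, 8 and 10, among them Ccne1, Aurkb and Kif4 in all 3 comparisons.

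With no minimum level, 40 of the 49 members lay below 0 for both older ages against 2 m, with a median of −0.99. That fit called 4 members, all lower (Ccnb1, Bub1, Smc4 and Cenpa). Without the 2-m library 1, 29 of the 48 that remained measurable lay below 0, with a median of −0.24, and none was called. The medians of all genes in these fits were −0.053 and −0.025. The shares of all genes below 0 or called with no minimum level are not given here, so these counts are a description. In bulk muscle, fewer cells of a type and less RNA per cell cannot be told apart, and this holds for every comparison given here.

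**Figure D5:**
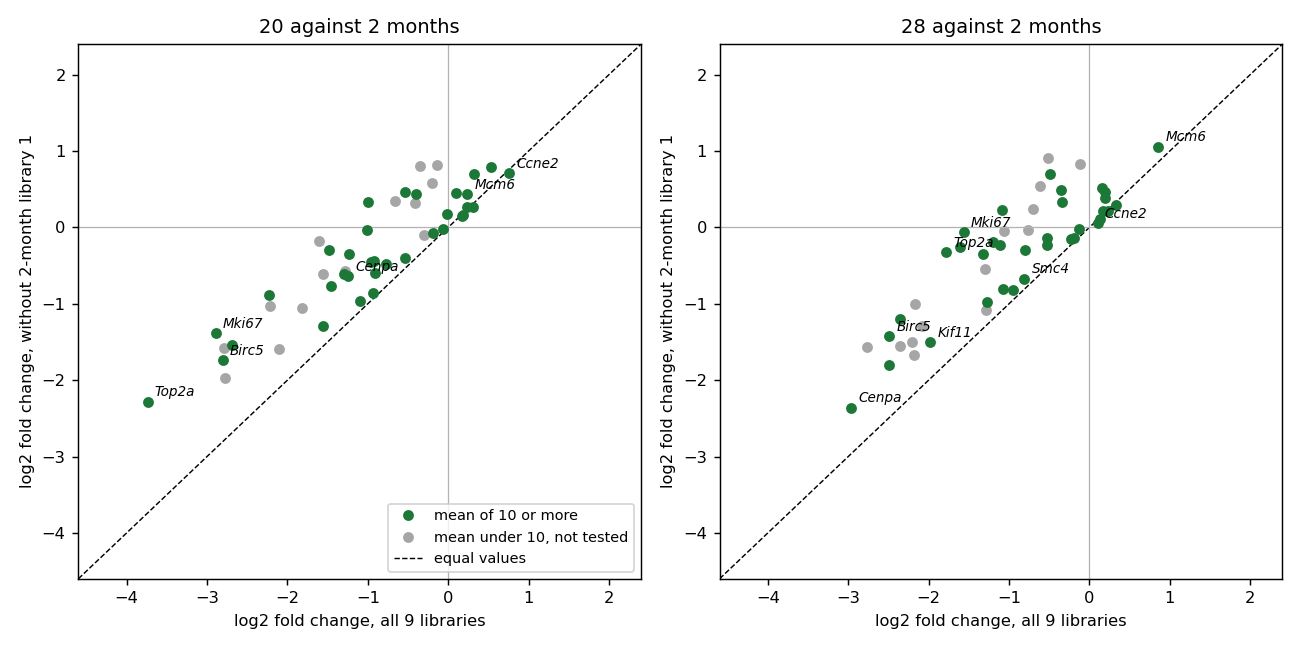
Log2 fold change of the 48 members that could be fitted both ways, with all 9 libraries (horizontal axis) and without the 2-m library 1 (vertical axis), fitted with no minimum level, for 20 against 2 m (left) and 28 against 2 m (right). Of the 48 points in each panel, 44 lie above the dashed line of equal values, and Mki67, for 28 against 2 m, moves from −1.57 to −0.06.

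The genes that govern entry into division were compared in the same fit. Of 28 cell cycle regulators, 27 were tested, and for 20 against 2 m 4 were lower (Ccnd2, Ccnd3, E2f2 and Lin52) and 1 higher (Lin54), with 16.6% of all tested genes called. For 28 against 2 m 2 were lower (Ccnd2 and Ccnd3) and 1 higher (Rb1), with 13.8% of all tested genes called. Ccnd2, a D-type cyclin that couples growth signals to the cell cycle, had 1384 ± 143, 676 ± 71.6 and 749.5 ± 55.5 normalized counts at 2, 20 and 28 m (SD, n = 3), and its log2 fold change for 28 against 2 m was −0.88 ± 0.11 (limma, adjusted p = 0.00028). Ccnd3, its relative, which is abundant in differentiated muscle, had 749.9 ± 99.7, 344 ± 49.3 and 338 ± 35.4 (−1.15 ± 0.15, adjusted p = 0.00028). Both also fell without the 2-m library 1 (−0.80 ± 0.12 and −1.04 ± 0.15, adjusted p = 0.0018 for each). Rb1, the retinoblastoma protein that restrains E2F factors, had 971 ± 97.0, 1239 ± 144 and 2016 ± 519, and it rose from 2 to 28 m by 1.02 ± 0.17 (adjusted p = 0.0017, and 0.010 without the 2-m library 1). The calls of E2f2 and Lin52 for 20 against 2 m were lost without that library (adjusted p = 0.109 and 0.126), and that of Lin54 was kept (adjusted p = 0.019).

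Among 7 genes of Cdk inhibitors, of which 6 were tested, Cdkn1b (p27) had 1952 ± 158, 1150 ± 114 and 972 ± 50.2 normalized counts and fell from 2 to 28 m by 1.00 ± 0.10 on the log2 scale (limma, adjusted p = 5.7e-05). Cdkn1c (p57) had 729.8 ± 59.7, 458 ± 20.9 and 532 ± 68.7 and fell by 0.46 ± 0.12 (adjusted p = 0.022). Cdkn1a (p21), an inhibitor that is also made during muscle differentiation and in response to stress, had 2484 ± 756, 3185 ± 301 and 3869.6 ± 322 and rose by 0.69 ± 0.18 (adjusted p = 0.026). These 3 calls were kept without the 2-m library 1 (adjusted p = 0.00046, 0.042 and 0.023). For 28 against 2 m, 13.8% of all tested genes were called (6.24% lower and 7.53% higher), and 8.54% without that library. Of 46 other genes of replication and mitosis, 32 were tested, and 1 was called for both older ages against 2 m, Racgap1, a partner of Ect2 in cytokinesis, which was lower (−1.39 ± 0.43, adjusted p = 0.036, and 0.155 without the 2-m library 1), where 20.1% of all tested genes were called, 8.92% lower. The median of these 32 was −0.18, and −0.08 for the 31 tested without that library. The genes of these lists with the highest mean normalized counts over 9 libraries, not corrected for length, were E2f6 (6672), Tfdp2 (3580.0) and Rbl2 (3411) among regulators and Tmpo (1866), Pttg1 (1577) and H2afz (1192) among replication and mitosis genes, and none of these 6 was called.

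Satellite cell markers differed between ages, and their part in the member values was not tested. Their sum was 2216 to 2435 normalized counts in 2-m, 1319 to 1583 in 20-m and 1640.1 to 1863 in 28-m muscle. For both older ages against 2 m, 4 of the 7 tested were lower, with 8.92% of all tested genes called lower. These were Pax7 (−1.29 ± 0.37), Myod1 (−0.78 ± 0.10), Heyl (−0.67 ± 0.15) and Megf10 (−0.75 ± 0.25), with adjusted p of 0.028, 0.00024, 0.0078 and 0.049 (limma). Without the 2-m library 1 Myod1 and Heyl remained called, and Pax7 and Megf10 had adjusted p of 0.060 and 0.062. For 20 against 2 m 2 of the 7 were lower and none higher, with 7.13% of all tested genes called lower and 9.42% higher. For 28 against 2 m 3 were lower (Myod1, Megf10 and Heyl, also without the 2-m library 1) and 1 was higher, with 6.24% of all tested genes called lower and 7.53% higher. The higher one was Myog, which acts when myoblasts fuse (1.01 ± 0.24, limma, adjusted p = 0.016, and 0.96 ± 0.28 with adjusted p = 0.056 without the 2-m library 1). Myog was also higher at 28 than at 20 m (1.26 ± 0.24, adjusted p = 0.047, and 0.066 without the 2-m library 1).

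The MBD-seq signal at the start sites of the members had a lower median than that of all tested genes at each age, in both tissues. MBD-seq values were averaged over the 500-bp bins within 1 kb of each start, as normalized counts, and since each age was 1 pool they have no replicate check. In muscle the median over the 49 members was 5.09, 5.39 and 7.65 normalized counts at 2, 20 and 28 m, against 7.46, 7.24 and 9.43 for 12323 genes tested by RNA-seq. In T cells it was 3.65, 6.81 and 5.02, against 8.73, 10.7 and 11.4. The value at 28 m was above that at 2 m in 34 of the 49 members in muscle (69.4%), compared with 63.3% of all those genes, and the median log2 fold change was 0.31 for the members and 0.27 for all. With only the bin that holds the start these were 1.54 and 0.77, and with the pools rescaled to the same sum 0.72 and 0.69. At 20 m 16 of the 49 were above 2 m in muscle (32.7%, against 43.0% of all), with a median of −0.15. In T cells 37 of the 49 were above 2 m at 20 m (75.5%, against 66.9% of all) and 25 at 28 m (51.0%, against 65.2%), with medians of 0.49 and 0.08 (0.23 and 0.23 for all). After rescaling to the same sum, the T-cell medians were 0.23 and −0.20 for the members and −0.023 and −0.036 for all, so that the sign at 28 m reversed.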

How the data were processed

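RNA-seq of 9 hindlimb muscles and MBD-seq of muscle and T cells were analysed. The deposited signal values are reads counted by the authors per refSeq gene (htseq-count, intersection-strict, mm10) or per 500-bp bin and divided by 1 DESeq2 size factor per library; for RNA-seq alignment the methods name Hisat2 and the processing notes TopHat. All values (100%) were whole multiples of 1 read (within 0.001 read), so reads were recovered. The 5 rows naming no gene held 37.9% to 47.7% of a column and were left out. The kit did not mark strand.

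Log2 of the normalized count plus 1 was fitted with limma 3.58.1 (R 4.3.3, limma-trend), with age as the only term, over 13178 genes with a mean of at least 10. Genes with a Benjamini-Hochberg adjusted p under 0.05 were called, two-sided. Fold changes understate those of low genes. Numbers after ± are standard errors for log2 fold changes and SDs for levels. edgeR 4.0.16 and DESeq2 1.42.0 on recovered reads were alternatives. Scripts were tested on simulated data.

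The members and lists were chosen with earlier results of these data known. Values in every library are given for 12 proliferation markers, for members called in a comparison, for the 5 highest per kilobase and for tested members whose direction reversed without the 2-m library 1. Ccne2 was added after its values were seen. Genes of the other lists are named if called or among the 3 highest by mean, and 3 marrow markers were named after their values were seen. The muscle MBD-seq columns do not name the round of capture, so which of the rounds they hold is not known. Alternatives without the 2-m library 1 and with no minimum, or with edgeR, were chosen after seeing the data.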

Additional observations from a re-analysis of the deposited data

How the results depend on the processing

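For 20 against 2 m (1 member called), the count was 2 with no minimum level, 0 with a mean of at least 50, 2 with libraries rescaled to the same sum, 2 with quantile normalization, 4 with edgeR, 6 with DESeq2, 0 with the libraries of the 2 ages only and 4 by a fold over 2 with an unadjusted p under 0.05. For 28 against 2 m (4), it was 2 with a mean of at least 50 and 2 after rescaling to the same sum. For 28 against 20 m (0), it was 1 by fold and unadjusted p and 1 with the libraries of the 2 ages only. For both older ages against 2 m (3), where the last alternative does not apply because all libraries enter, it was 1 with a mean of at least 50, 9 with edgeR, 11 with DESeq2 and 7 by fold and unadjusted p. Pseudocounts of 0.1 and 5 moved no count by over 1.5 times. Without the 2-m library 1, the counts in this order were 0, 1, 0 and 0 with no minimum level and 0, 1, 0 and 0 with edgeR. The share of all genes called also differed between settings, so these counts cannot be compared directly. For 20 against 2 m it was 16.6% in the main fit, 16.7% with edgeR, 19.4% with DESeq2 and 5.17% by fold and unadjusted p. The numbers of genes called after rescaling are given below. The cause of these shifts was not tested.

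Leaving out each library in turn gave 0 to 5, 0 to 4, 0 to 0 and 1 to 6 called members. The highest counts, 5 and 6, came without the 2-m library 2, and the count for 28 against 2 m was 0 without the 28-m library 1, 2 without the 28-m library 3 and 1 without the 2-m library 1. For both older ages it was 1 without the 2-m library 1 or the 20-m library 1, and for 20 against 2 m it was 0 without the 2-m library 1 and 2 without the 2-m library 3 or the 28-m library 2. Without the 2-m library 1, 10.8%, 8.54%, 0.359% and 12.8% of all tested genes were called, against 16.6%, 13.8%, 0.379% and 20.1% with all libraries. The shares without each other library are not given here. Whether the members or all genes moved there cannot be read from these counts. Top2a lost its call without any one of the 20-m libraries or the 28-m libraries 1 or 3. Over the alternatives, the adjusted p of Smc4 for 28 against 2 m ranged from 0.0020 to 0.144, of Cenpa from 0.00085 to 0.111, of Kif11 from 0.0029 to 0.197, of Mcm6 from 0.0054 to 0.121, and of Top2a for 20 against 2 m from 0.017 to 0.142. None of Smc4, Cenpa, Kif11, Mcm6 and Top2a changed direction in these comparisons.

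Rescaling to the same sum lowered the genes called from 2181, 1814, 50 and 2649 to 586, 554, 24 and 796. For 28 against 20 m DESeq2 called 225 genes, the 2 ages alone 122 and the replicate block 138. The replicate numbers were not taken as pairs, since the labels name no animal or batch shared by equal numbers. The r of the deviations between equally numbered libraries ran from −0.040 to 0.161, over 0.1 in 3 of 9 pairs. However, 7 of 9 libraries correlated best with their own number. The library 3 also had the lowest share in rows naming no gene at each age (37.9%, 41.5% and 38.9% at 2, 20 and 28 m). Whether equal numbers share a batch was not tested. With the replicate number as a block, 5, 5, 0 and 6 of the 34 tested members were called. These counts are for 20 against 2 m, 28 against 2 m, 28 against 20 m and both older ages. The shares of all genes called were 22.8%, 19.2%, 1.05% and 25.6%.

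The MBD-seq medians for members (muscle −0.15 and 0.31 for 20 and 28 m, T cells 0.49 and 0.08) became 0, 1.54, 0 and 0 with only the bin holding the start, −0.15, 0.42, 0.56 and 0.085 with a pseudocount of 0.25, and −0.042, 0.72, 0.23 and −0.20 after rescaling to the same sum. The last reversed. In the 15 members with 10 or fewer reads in each of the other 8 libraries, small differences between ages were not detectable at this depth.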
